A study of Mus musculus with 6 samples.

Results

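The cytosolic ribosomal protein genes encode the proteins that, with ribosomal RNA, make up the ribosome of the cytoplasm. They were taken from the table by symbol: Rpl or Rps followed by digits and at most 1 further letter, plus Rplp0, Rplp1, Rplp2 and Rpsa, with a normalized count of at least 10 in at least 3 of the 6 libraries. Of 82 matching symbols 80 met the minimum, out of 12408 genes tested, and they comprise 49 genes of the large (60S) subunit and 31 of the small (40S) subunit. The matching symbols left out were Rpl10l, at 0 in 5 libraries, and Rps4l, at 0 to 2.97. The lowest members were Rpl24, at 23.8 to 32.9 normalized counts, and Rpl23a, at 31.9 to 46.2.

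Poly(A) RNA of L929 cells, an established mouse fibroblast line, was sequenced from 3 STING KO samples (genotype Sting-/-) and 3 control samples (genotype WT). No treatment is named for either group. How the knockout was made, and whether it is a single clone, is not given in the sources used here. Since no label states that the replicates are independent cultures, the tests weigh differences against the variation among these libraries alone, and that variation may be technical.

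STING is an adaptor in the membrane of the endoplasmic reticulum that is activated by cyclic dinucleotides made when DNA is sensed in the cytoplasm. Ribosomal proteins are made in near-equal numbers, 1 of each per ribosome for nearly all of them, and their mRNAs are short, abundant and long-lived. Most of these mRNAs start with a C followed by a run of pyrimidines, the terminal oligopyrimidine tract, through which mTORC1 controls their translation. In mammals nearly every ribosomal protein gene has also left processed pseudogenes, intron-free copies of its mRNA scattered over the genome, so short reads can match several places.

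The normalized counts summed to between 14382072 and 14526606 per library. Tmem173, the gene of STING, had 82.1, 80.6 and 93.4 normalized counts in the STING KO libraries, against 329, 313 and 311 in the control libraries, so reads of the gene were still counted in STING KO cells, at 26.9% of the control mean. Over all genes, limma called 0 genes higher and 32 lower in STING KO cells at an adjusted p of 0.05 or less. The fibroblast markers summed to between 213644 and 244199 in every library, although Lum and Dcn were near 0 in several. Dcn stood at 32.7 in STING KO replicate 1 and 94.4 in control replicate 3, against at most 4.99 elsewhere. The 16 hepatocyte markers summed to 5888, 874 and 405 in the STING KO libraries, against 842, 374 and 6304 in the control libraries, so STING KO replicate 1 and control replicate 3 stood apart. The macrophage and leukocyte markers summed to between 1400 and 1691, with 3 of 13 under 10 in every library. Cd68 and Cd74 made up most of that sum. Lyz2 stood at 71.3 in STING KO replicate 1 and 97.4 in control replicate 3, against at most 22.1 elsewhere. C1qb stood at 24.7 and 43.7 in the same libraries, against at most 4.99 elsewhere. The same libraries were the 2 highest for Csf1r, C1qa and, at low values, Fcer1g, but not for Ptprc, Cd68, Cd14, Laptm5 and Cd74. The epithelial and endothelial markers summed to 716, 602 and 687 in the STING KO libraries, against 535, 591 and 604 in the control libraries, and 2 of 10 were under 10 in every library. Most of this sum was Krt8, at 544, 477 and 547 in the STING KO libraries against 413, 470 and 439 in the control libraries, without overlap (log2 fold change 0.25, limma adjusted p of 0.717). Krt18 stood at 36.6 in STING KO replicate 1 and 39.7 in control replicate 3, against at most 8.99 elsewhere. These libraries were also the 2 highest for Cdh1 and Pecam1, both at low values, while Epcam, Krt19 and Vwf did not follow this order. The part of all these markers in the results below was not tested.

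No ribosomal protein gene passed the test between STING KO and control cells, but nearly all of their fold changes lay on the same side of 0. The log2 fold change, STING KO over control throughout, was above 0 for 74 of the 80 genes and below 0 for 6, against 49.2% above 0 over all genes tested. Its median was 0.14, with quartiles of 0.10 and 0.16, against a median of 0.00 over all genes tested. Summed over the 80 genes, the STING KO libraries held 109% of the control amount. The median was 0.06 without STING KO replicate 3, and 0.11 without both libraries that stood apart by hepatocyte markers.

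That small shift did not separate the groups of libraries. Relative to the mean of the control libraries, the median ribosomal protein gene stood at 0.09, 0.02 and 0.28 on the log2 scale in STING KO replicates 1, 2 and 3, against -0.03, 0.13 and -0.09 in control replicates 1, 2 and 3. Control replicate 2 therefore lay above 2 of the 3 STING KO libraries. STING KO replicate 3 was the highest of all 6 libraries for 66 of the 80 genes, and control replicate 3 was the lowest for 51. The genes shared this order of libraries, since STING KO replicate 3 was the highest STING KO library for 70 genes and control replicate 2 the highest control library for 72. In bulk samples, fewer cells with a transcript and less of it per cell cannot be told apart.

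**Figure D1:**
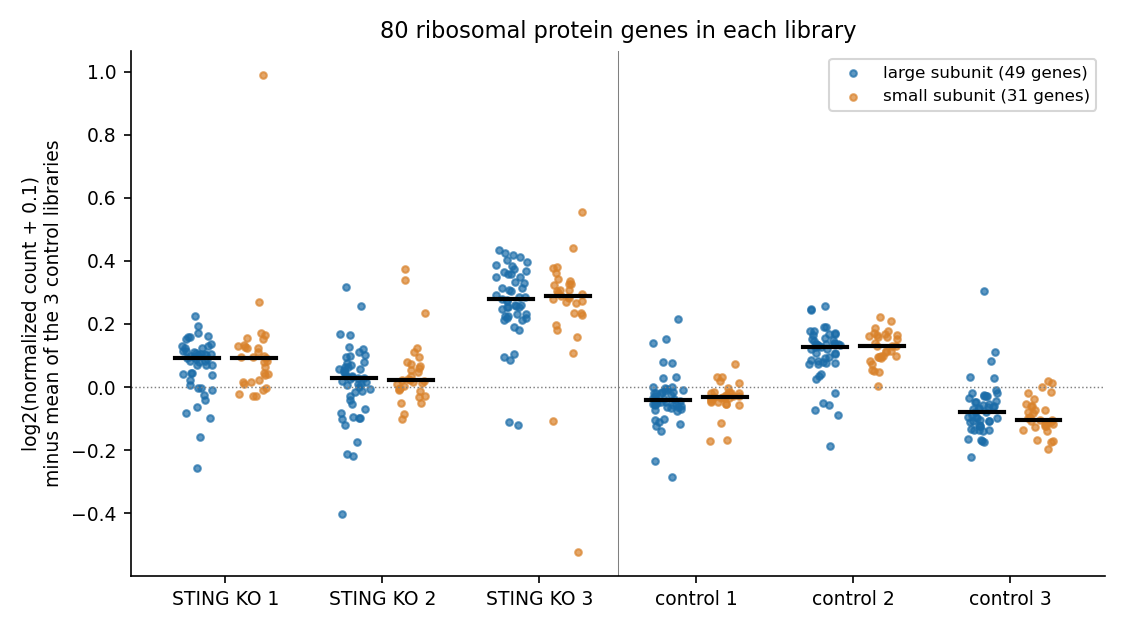
Each point is 1 ribosomal protein gene in 1 library, as log2(normalized count + 0.1) minus its mean over the 3 control libraries; blue points are large subunit genes, orange points small subunit genes, and black bars the medians. STING KO replicate 3 has the highest medians (0.28 and 0.29), and control replicate 2 (0.13 and 0.13) lies above STING KO replicates 1 and 2.

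The large and the small subunit gave nearly the same values in every library. Relative to the control mean, the large subunit genes had medians of 0.09, 0.03 and 0.28 (log2) in the STING KO libraries and of -0.04, 0.13 and -0.08 in the control libraries. For the small subunit genes the medians were 0.09, 0.02 and 0.29 in the STING KO libraries and -0.03, 0.13 and -0.10 in the control libraries. The median log2 fold change was 0.14 for the large subunit, with 45 of 49 genes above 0, and 0.13 for the small subunit, with 29 of 31 above 0.

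As a share of all normalized counts, the 80 genes held 2.54, 2.48 and 2.89% in the STING KO libraries, against 2.35, 2.61 and 2.27% in the control libraries. The mean share was 2.63% ± 0.22 in STING KO and 2.41% ± 0.17 in control cells (SD, n = 3 each), a difference of about the size of the spread. Large subunit genes held 1.61% ± 0.14 in STING KO and 1.47% ± 0.10 in control cells. Small subunit genes held 1.03% ± 0.083 in STING KO and 0.938% ± 0.071 in control cells.

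The summed large subunit counts were 1.55, 1.56 and 1.58 times the small subunit counts in the STING KO libraries, against 1.56, 1.56 and 1.58 times in the control libraries. The groups overlapped, at 1.56 ± 0.011 in STING KO and 1.57 ± 0.012 in control cells (SD, n = 3 each). Taken as a mean over genes, the log2 level of the large subunit minus that of the small subunit was -0.59, -0.58 and -0.53 in the STING KO libraries, against -0.55, -0.57 and -0.53 in the control libraries. The means differed by -0.02 on the log2 scale, less than the SD of either group.

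Gene by gene, limma called 0 of the 80 ribosomal protein genes higher (0% of all genes tested) and 0 lower (0.258% of all genes tested) at an adjusted p of 0.05 or less. The smallest limma adjusted p was 0.675, for Rps19. At an unadjusted p of 0.05 or less, 12 were higher in STING KO cells, 6 of each subunit, where 3.2% of all genes tested were, and 0 were lower, where 3.18% were. The STING KO libraries lay wholly above the control libraries for 1 gene, Rpl35a, where 5.76% of all genes tested did so, and wholly below for 0, where 6.32% did.

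In the authors' deposited table, 0 ribosomal protein genes passed an adjusted p of 0.05, where 0.043% of its genes with an adjusted p were higher and 0.251% lower. The authors' deposited table gives 19 of the 80 genes an unadjusted p of 0.05 or less, all higher in STING KO cells, where 1.51% of the genes tested here were. The smallest adjusted p among them in the authors' deposited table was 0.554.

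The spread of most of these genes among the libraries was small. The intervals below are given gene by gene and rest on the variation among these libraries alone, which may be technical. The standard error of the log2 fold change had a median of 0.09 and ran from 0.06 to 0.21. The 95% interval lay within 1.5-fold in both directions for 77 of the 80 genes and within 2-fold for all 80. The genes whose interval reached past 1.5-fold were Rps2, Rpl17 and Rpl3l.

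**Figure D2:**
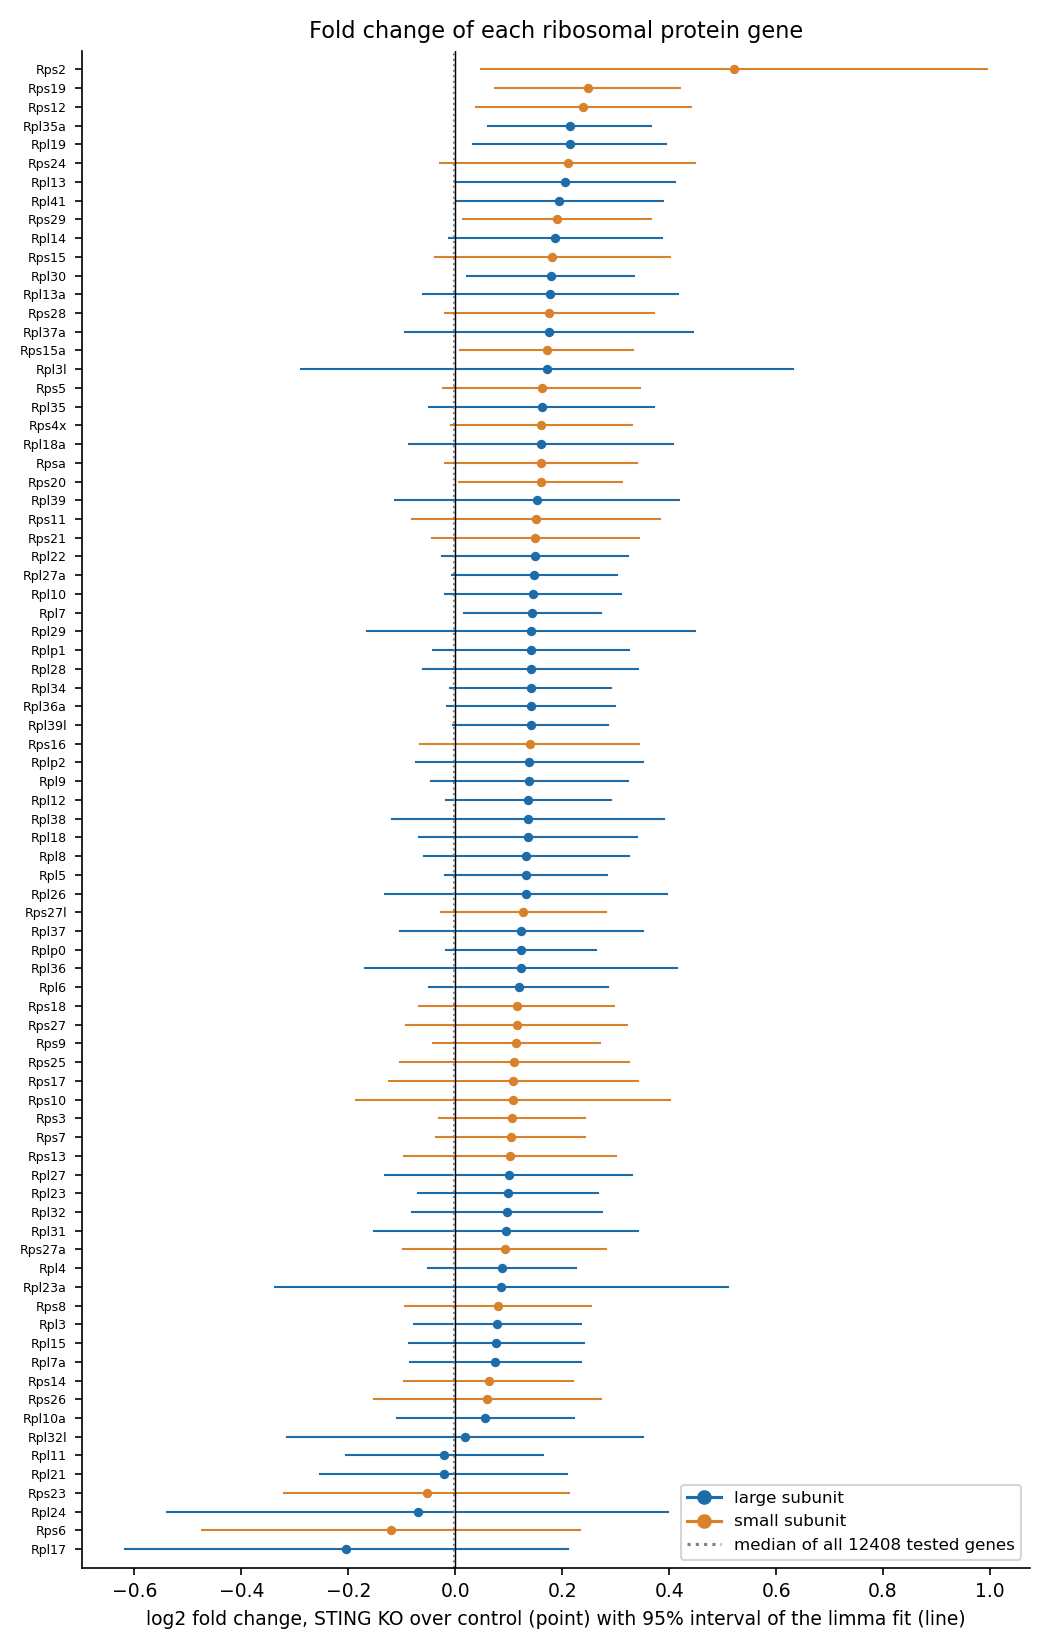
Each row is 1 ribosomal protein gene, with its log2 fold change as a point and its 95% interval in the limma fit as a line, blue for the large and orange for the small subunit; the dotted line is the median of all tested genes. Of the points, 74 lie above 0, and the intervals of 12 genes lie wholly above it.

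Rps19, a protein of the 40S head whose human gene is mutated in Diamond-Blackfan anaemia, had the smallest p. It lies on chromosome 7 at 24884371-24889806 of GRCm38. Its normalized counts were 2507, 2964 and 2898 in the STING KO libraries, against 2312, 2538 and 2193 in the control libraries. STING KO replicate 1 lay just below control replicate 2, so the groups overlapped. Rps19 had a log2 fold change of 0.25 ± 0.08 (SE), with a limma adjusted p of 0.675.

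Rpl35a, a 60S protein whose human gene is also mutated in Diamond-Blackfan anaemia, lies on chromosome 16 at 33056453-33060189 of GRCm38. It had 1442, 1382 and 1640 normalized counts in the STING KO libraries, against 1263, 1303 and 1273 in the control libraries. All 3 STING KO libraries lay above all 3 control libraries, and the control libraries were close together. The log2 fold change was 0.21 ± 0.07 (SE), with a limma adjusted p of 0.712.

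Rps12, a protein of the 40S head, had 3194, 4077 and 3942 normalized counts in the STING KO libraries, against 3112, 3364 and 2979 in the control libraries. STING KO replicates 2 and 3 were above every control library, and replicate 1 lay among them. Rps12 had a log2 fold change of 0.24 ± 0.09 (SE), with a limma adjusted p of 0.738. For Rpl19, a 60S protein, the values were 999, 1158 and 1081 in STING KO and 866, 1026 and 901 in control libraries, with overlap and a log2 fold change of 0.21. The 60S proteins Rpl30 and Rpl7, with log2 fold changes of 0.18 and 0.14, completed the 6 smallest p values on the higher side, and both overlapped between groups.

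Rps2, a 40S protein near the entry of the mRNA channel, had the largest fold change of the 80 genes over all 6 libraries. It is named because of that value, and it lies on chromosome 17 at 24718116-24721929 of GRCm38. It had 252, 128 and 187 normalized counts in the STING KO libraries, against 113, 142 and 128 in the control libraries. STING KO replicate 1 stood well above the rest, and replicate 2 lay among the control libraries. The log2 fold change was 0.52 ± 0.21 (SE), with a limma adjusted p of 0.738. Without STING KO replicate 1 it was 0.29, below Rps12 (0.35) and Rps19 (0.32) in the same libraries.

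Rps6, the 40S protein that S6 kinases phosphorylate downstream of mTORC1, went against the other genes in a single library. It lies on chromosome 4 at 86854660-86857412 of GRCm38. It had 2288, 2282 and 1505 normalized counts in the STING KO libraries, against 1923, 2521 and 2083 in the control libraries. STING KO replicate 3, the library in which most ribosomal protein genes were highest, had the lowest Rps6 value of all 6. Over the groups, its log2 fold change was -0.12 ± 0.16 (SE), with a limma adjusted p of 0.820. Without STING KO replicate 3 it was 0.08, so that library sets its sign.

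Set against the mean of the other 5 libraries, Rps6 in STING KO replicate 3 was at -0.55 on the log2 scale, where the median ribosomal protein gene was at 0.26 and 4 of the 80 genes were below 0. Dennd4c, the gene that ends 4056 bases from Rps6 and was looked up after this value was seen, had 365, 455 and 227 normalized counts in the STING KO libraries, against 486, 356 and 468 in the control libraries. STING KO replicate 3 was thus the lowest library for both neighbours, with Dennd4c at -0.90 on the same scale. Dennd4c has an annotated transcript of 5870 bases. Tested genes outside the 80 with transcripts over 4000 bases also had their lowest median in this library, at -0.15 relative to the control mean. Whether the low values of Rps6 and Dennd4c are linked was not tested. Rps6-ps4, an annotated pseudogene on chromosome 2 that matches the whole Rps6 coding sequence without a difference, had 207, 188 and 233 in the STING KO libraries and 196, 238 and 175 in the control libraries. STING KO replicate 3 was not low for this copy.

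**Figure D3:**
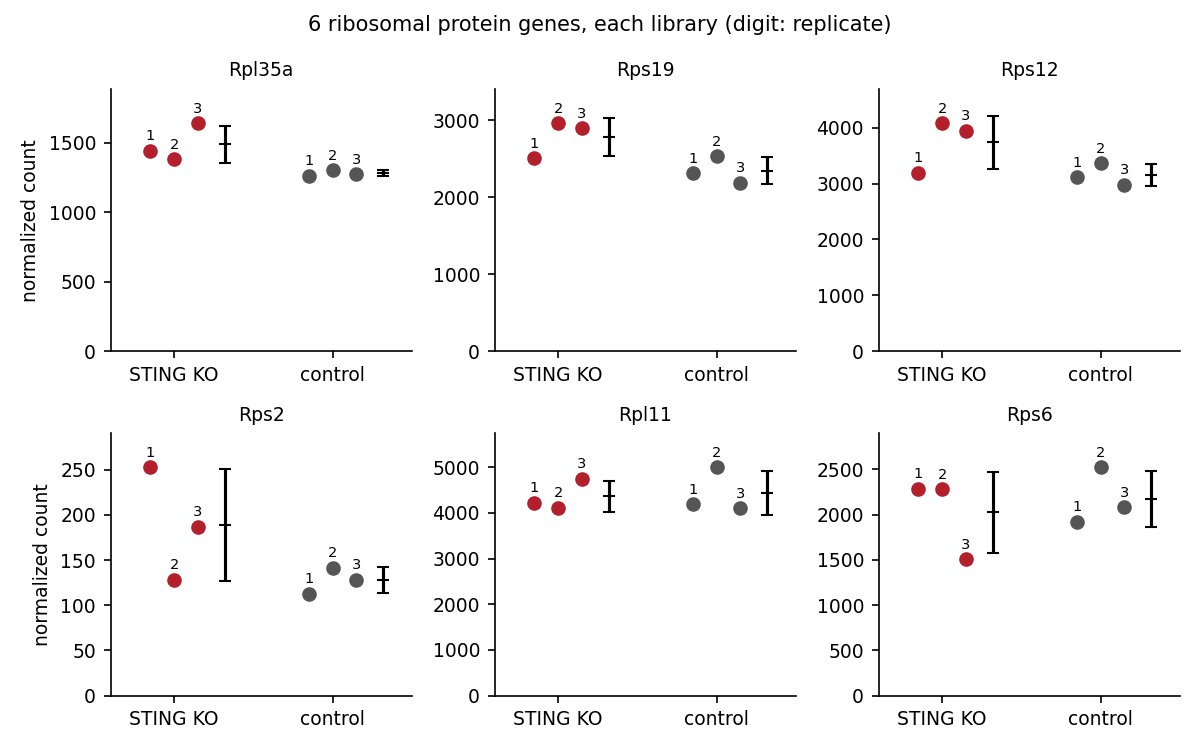
Normalized counts of 6 ribosomal protein genes, with STING KO libraries in red on the left, control libraries in grey on the right, the replicate number above each point, and the mean and SD of each group in black. Rpl35a is the gene whose groups do not overlap, and Rps6 is lowest in STING KO replicate 3 (1505).

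The other genes below 0 did not stand out from their spread. Rpl11, which with Rpl5 and the 5S ribosomal RNA forms a particle that binds Mdm2, had 4225, 4114 and 4743 normalized counts in the STING KO libraries and 4191, 4993 and 4108 in the control libraries. Its log2 fold change was -0.02 ± 0.08 (SE), where that of Rpl5 was 0.13 ± 0.07. Rpl17, a protein at the exit of the peptide tunnel, had 40.6, 32.9 and 40.2 in the STING KO libraries against 36.9, 51.9 and 42.7 in the control libraries, a log2 fold change of -0.20 ± 0.18. Rpl24 (-0.07), Rps23 (-0.05) and Rpl21 (-0.02) were the remaining genes below 0, and all 6 overlapped between groups.

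By place in the ribosome, the 40S head had all 14 of its genes above 0, with a median log2 fold change of 0.15. The 40S body had 14 of 16 above 0, with a median of 0.11. Rplp0, Rplp1 and Rplp2 form the stalk that recruits elongation factors, and the 4 genes listed for the stalk and its base lay between 0.12 and 0.14. Of the 8 genes at the exit of the peptide tunnel, 7 were above 0, with a median of 0.14. Rps3, at the entry of the mRNA channel, was at 0.11. Rpsa, which is also known as a laminin receptor, was at 0.16. Rps27a, which is made as a fusion to ubiquitin, was at 0.09. Each of these groups had 0 genes past the limma adjusted p of 0.05.

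The deposited levels of the genes differed widely even though the ribosome uses nearly all of these proteins in equal number. Per kilobase of transcript, with 1 annotated transcript taken per gene, 14 genes had more than 10000 normalized counts and 10 had fewer than 300. The highest were Rpl8, at 22749 per kilobase, Rplp1 at 22737 and Rplp0 at 20080. The lowest were Rpl3l, a paralog of Rpl3 known from striated muscle, at 37.2 per kilobase, Rpl24 at 41.2 and Rpl17 at 52.7.

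To show where reads may be shared, the coding sequences of 79 of the genes were searched against the GENCODE transcripts. Rpl32l was left out because GENCODE annotates it as a processed pseudogene. Its symbol places it among the large subunit genes here, and it also counts below as a copy of Rpl32. Counting a copy as at least 95% identical over at least 50% of the coding sequence, 74 genes had at least 1, with a median of 5 and 597 copies in all. Of these copies 581 were annotated pseudogenes, and 26 had a row in the table. A near-identical copy, at least 99% identical over at least 90% of the coding sequence, was found for 55 genes.

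Rpl21 had 58 copies, Rpl7a 37, Rpl29 29, Rps2 27, Rpl17 24, Rps12 22 and Rpl23a 20. Across the 79 genes, Spearman's rho between the number of copies and the level per kilobase was -0.46, given as a description, since genes are not replicates. The 10 genes under 300 per kilobase include Rpl32l, which was not searched. Among them 6 had at least 10 copies, namely Rpl17, Rpl21, Rpl23a, Rpl29, Rps2 and Rps23. Rps12, with 22 copies, stood at 6973 per kilobase, so many copies and a low value did not always go together. Whether the authors' counting lost reads to copies was not tested.

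**Figure D4:**
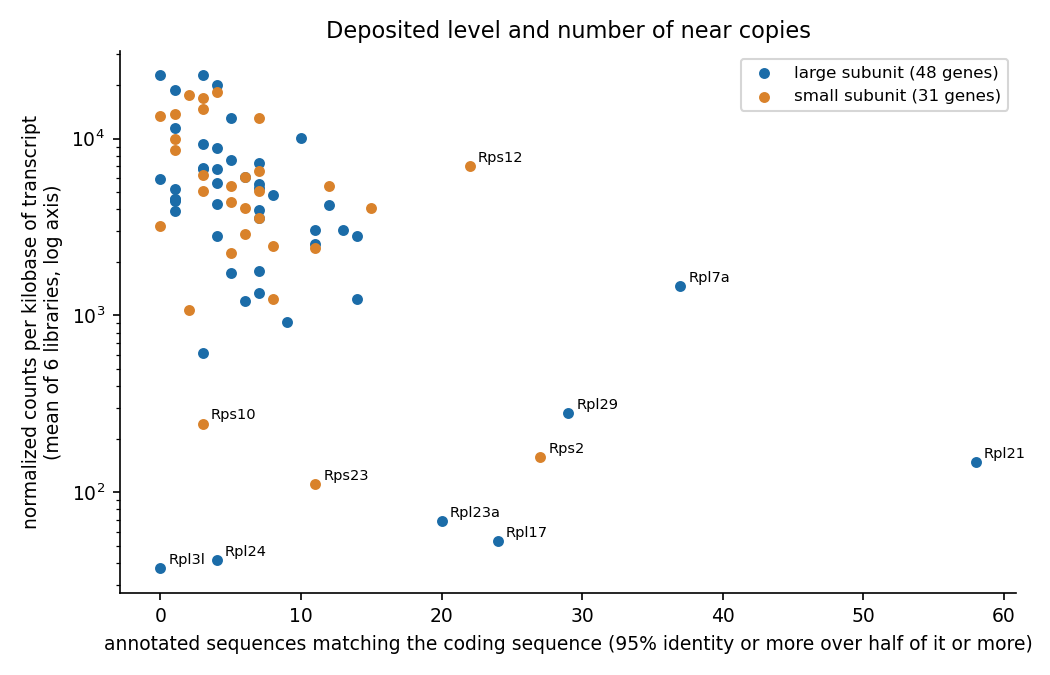
Each point is 1 of the 79 searched genes, with the number of annotated copies of its coding sequence on the x axis and its mean normalized count per kilobase of transcript on the y axis (log scale); blue is the large and orange the small subunit. Genes with 20 or more copies or under 300 per kilobase are named, and Rps12, with 22 copies, stands at 6973 per kilobase.

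The median fold change differed little between genes with few and many copies, while the genes below 0 were mostly among those with many. The median log2 fold change was 0.13 for the 15 genes with 0 or 1 copies, 0.14 for the 20 with 2 to 4, 0.13 for the 26 with 5 to 9 and 0.12 for the 18 with 10 or more. Above 0 were 15 of 15, 19 of 20, 25 of 26 and 14 of 18 genes of these classes in the same order. The 24 genes without a near-identical copy were all above 0, with a median of 0.14, and the 6 genes below 0 each had such a copy. Spearman's rho between copies and log2 fold change over the 79 genes was -0.05.

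Several copies carried counts of their own. Gm6472, a copy of Rps7, averaged 1695 normalized counts where Rps7 had 5391, and Rpl14-ps1 averaged 1376 where Rpl14 had 4467. Gm15772, a copy of Rpl26, averaged 1149 where Rpl26 itself had 634, so the row annotated as a processed pseudogene held more than the parent gene. Gm15772 had 1167, 1105 and 1326 in the STING KO libraries, against 1052, 1167 and 1078 in the control libraries. Rpl26 had 647, 563 and 786 in the STING KO libraries, against 669, 572 and 569 in the control libraries.

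Over the 435 coding bases, Gm15772 differed from Rpl26 at 2 positions, C177T and T288C, counted from 1 at the first base of the start codon with the Rpl26 base first. The stretch from coding base 147 to 236 is shown for both, from GENCODE M21 on GRCm38, because it holds 1 of these positions, in capitals. A read of these 90 bases that misses the capital matches both genes equally well.
Rpl26: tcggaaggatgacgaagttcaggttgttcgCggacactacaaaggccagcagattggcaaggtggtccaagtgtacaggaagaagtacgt
Gm15772: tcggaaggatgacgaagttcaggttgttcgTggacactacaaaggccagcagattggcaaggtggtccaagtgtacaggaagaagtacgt

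Rpl37rt, annotated as a transcribed processed pseudogene of Rpl37 on chromosome 5, was picked out after its values were seen. It had 353, 340 and 390 normalized counts in the STING KO libraries, against 281, 288 and 266 in the control libraries, without overlap. The log2 fold change was 0.37, with a limma adjusted p of 0.216. Rpl37 had 3926, 3404 and 4540 in the STING KO libraries, against 3575, 3965 and 3308 in the control libraries, with overlap and a log2 fold change of 0.12.

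Short transcripts in general moved from library to library in the same order as the ribosomal protein genes. The transcripts of the 80 genes had a median length of 680.5 bases (271 to 3706), 62 of them of at most 1000 bases, against a median of 2712 bases over the genes tested. The 275 other tested genes with transcripts of at most 600 bases had medians of 0.07, 0.01 and 0.20 (log2, relative to the control mean) in the STING KO libraries, against -0.02, 0.09 and -0.07 in the control libraries. The 3364 other genes with transcripts over 4000 bases had medians of -0.04, 0.00 and -0.15 in the STING KO libraries, against 0.03, -0.07 and 0.04 in the control libraries. STING KO replicate 3 and control replicate 2 were thus the highest libraries for short transcripts, as for ribosomal protein genes, and the lowest for long ones.

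Of the other genes of at most 600 bases 73.5% had a log2 fold change above 0, and of those over 4000 bases 25.5% did. Spearman's rho between transcript length and log2 fold change was -0.37 over 12326 other genes and -0.06 within the 80 ribosomal protein genes. In a further fit, the values of each library were first corrected for GC content and transcript length, with the 80 genes among those used. The median log2 fold change of the ribosomal protein genes was then 0.08, with 71 of 80 above 0 and 0 called.

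**Figure D5:**
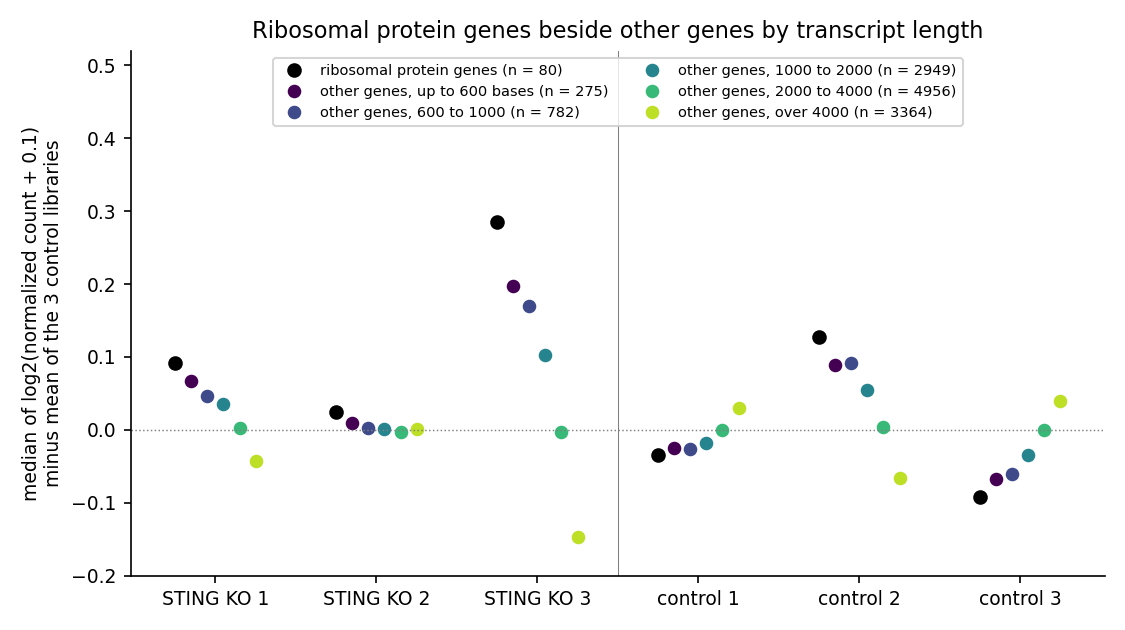
For each library, the median of log2(normalized count + 0.1) minus the mean of the 3 control libraries, for the ribosomal protein genes (black) and for other tested genes in 5 classes of transcript length in bases (dark for short, light for long). In STING KO replicate 3 the order runs from 0.28 for the ribosomal protein genes through 0.20 for the shortest other transcripts to -0.15 for the longest, and in control replicate 3 the order is turned round.

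The first bases of the mRNA were read from RefSeq promoter windows of GRCm38.p6, which matched 60 of the 80 genes. A C at the annotated start followed by at least 4 pyrimidines (C or T) was found in 14 of the 60 (23.3%), against 3.01% of 27025 genes. The annotated start can differ from the one used in L929 cells. The windows below run from 15 bases before the start to 15 bases from it, on the strand of the gene, and show how the tract differs between genes, with the start and its pyrimidine run in capitals.
Rpl35a, chr16:33056467-33056496, plus strand: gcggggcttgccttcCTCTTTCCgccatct
Rps6, chr4:86857353-86857382, minus strand: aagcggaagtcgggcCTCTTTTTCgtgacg
Rpl15, chr14:18270972-18271001, minus strand: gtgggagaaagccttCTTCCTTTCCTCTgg
Rps27, chr3:90213634-90213663, minus strand: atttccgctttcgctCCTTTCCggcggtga
Rplp2, chr7:141447636-141447665, plus strand: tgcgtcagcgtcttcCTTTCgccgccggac

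The genes with and without the tract at the annotated start had the same median log2 fold change, 0.14. Rpl35a and Rps6, which lay at 0.21 and -0.12, both carry it. CCGGAAG has the core letters bound by ETS family factors. It was found on either strand of a window in 25 of the 60 genes (41.7%), against 9.93% of 27025 genes. The median log2 fold change was 0.13 with this motif and 0.14 without it. TATAAA was found on either strand in 7 of 60 (11.7%), against 15.7% of the 27025 genes, with medians of 0.15 with it and 0.14 without it. The windows below show CCGGAAG, or its reverse complement, in capitals for genes with a role named above.
Rpl11, chr4:136053370-136053399, minus strand: aaggccacggggCCGGAAGtctccctctct
Rpl19, chr11:98026659-98026688, plus strand: gacttagcgtgaCTTCCGGctacccagagg
Rps6, chr4:86857441-86857470, minus strand: gttaatctacgcCCGGAAGtaacgcccctc
Rpsa, chr9:120127566-120127595, plus strand: tcgccccagctaCTTCCGGcctggggtctg

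Other genes of protein synthesis were set beside the ribosomal proteins. In each of these lists, 0 genes passed the limma adjusted p of 0.05. The lists were not matched for transcript length, and over other genes a longer transcript went with a lower fold change (Spearman's rho -0.37). The part of length in the values of these lists was not tested. Ribosomal protein genes that the symbol pattern misses, such as Fau, Rps3a1 and Rack1, were above 0 in 7 of 7 tested, with a median log2 fold change of 0.13. Rpl22l1, a paralog of Rpl22, had 1541, 1576 and 1738 normalized counts in the STING KO libraries, against 1375, 1507 and 1394 in the control libraries. Its groups did not overlap, and its log2 fold change was 0.18. Genes with symbols of mitochondrial ribosomal proteins, Mrpl or Mrps with digits, were above 0 in 64 of 75 tested, with a median of 0.07. Those proteins serve a separate ribosome, but a symbol alone does not show that a protein belongs to it. Mrps36 had the smallest p in this list, at 360, 328 and 352 in the STING KO libraries against 283, 288 and 291 in the control libraries. Its groups did not overlap (log2 fold change 0.27, limma adjusted p of 0.473). Mrpl23 came next, at 327, 316 and 385 in the STING KO libraries against 267, 291 and 279 in the control libraries. It also had no overlap (log2 fold change 0.29, limma adjusted p of 0.675).

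Of 19 genes outside the symbol pattern whose mRNAs are known to carry the pyrimidine tract, 15 were above 0, with a median of 0.07. Tpt1, an abundant mRNA of this kind, was at 0.14 and Vim at 0.16. The list shares Rack1 with the ribosomal protein genes that the pattern misses, and Npm1 with the ribosome biogenesis genes. Many of its genes, among them Eef1a1, Eef2, Pabpc1 and Eif4b, are also counted among the translation factors, so these lists are not separate. The 39 translation factors split into 22 above and 17 below 0, with a median of 0.02. The initiation factor subunits Eif3m, at 0.14, and Eif3j1, at -0.17, had their smallest p.

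The factors that build ribosomes lay more often below 0 than above it, in a list not matched to the ribosomal proteins for transcript length. Of 54 ribosome biogenesis genes tested 21 were above 0, with a median of -0.02. The STING KO libraries lay wholly below the control libraries for 10 of them and wholly above for 3, where 6.32% and 5.76% of all genes tested did so. At an unadjusted limma p of 0.05 or less, 4 were lower and 0 higher, where 3.18% and 3.2% of all genes tested were. Rrp1b, a nucleolar protein, had 762, 784 and 695 normalized counts in the STING KO libraries, against 858, 862 and 852 in the control libraries. The groups did not overlap, at a log2 fold change of -0.20 with a limma adjusted p of 0.675. The RNA polymerase I machinery, which transcribes ribosomal RNA, was above 0 in 9 of 15, with a median of 0.02.

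The list of mTORC1 and its translation outputs was drawn widely, and also held Myc, Mycn, Max, Mxd4, Mlx, Rps6ka1 and Rps6ka3. Of the genes tested from it, 7 of 22 were above 0, with a median of -0.06. Pdcd4, an inhibitor of translation initiation, had 907, 988 and 916 in the STING KO libraries, against 761, 788 and 857 in the control libraries, without overlap (log2 fold change 0.22, limma adjusted p of 0.596). Eif4ebp1, the repressor of the cap-binding protein that mTORC1 phosphorylates, was at 0.20 and overlapped. Ribosome surveillance and rescue genes were above 0 in 7 of 15, with a median of -0.02.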

How the data were processed

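Poly(A) RNA of 3 STING KO and 3 control L929 samples was analysed, grouped by the sample titles. The authors deposited 1 gene table of 27821 rows for 27507 identifiers, and the first row of each was used. Its sample columns hold a signal, counts that the authors divided by a size factor, called normalized counts here: 100% of the values were whole multiples, within 0.01, of a step of 0.99 to 1.004 per library. Per the file headers, it also holds the authors' log2 fold changes, Wald scores and p-values. Per the submitters' processing notes, which give no roles, the tools were RSEM 1.2.12, DESeq2 1.4.5, Bowtie2 2.2.5 and HISAT2 2.0.4 and the builds mm10 and GRCm38. Not given in the sources used here were the strand setting, the annotation and the treatment of reads with several matches, and overlapping or near-identical genes may share reads.

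Genes with at least 10 in at least 3 samples entered a limma 3.58.1 fit in R 4.3.3 of log2(normalized count + 0.1), with the trend option and no covariate. The Benjamini-Hochberg adjustment ran over all 12408 genes, and the threshold was 0.05. Adding 0.1 understates the change of low genes. Lengths, positions and copies come from GENCODE M21 (GRCm38), which holds 27480 of the identifiers; copies were found with blastn (BLAST 2.17.0), and promoter windows come from RefSeq. No label pairs the samples by replicate number, and the main fit did not pair them. Deviations of same-numbered libraries from their group means correlated at -0.183, -0.18 and -0.488. Differences between libraries, such as those by transcript length, enter these values, so they do not decide whether samples were paired.

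The members and gene lists were chosen with earlier results of these data known, so counts and medians over them are descriptions and have no test. Genes named are STING's, the 6 smallest p in each direction, the 3 highest and lowest per kilobase, 9 members with known roles, those at the edge of the value minimum and the 2 smallest p of each other list; copies, their parent genes, the members with the most copies, those whose start windows are printed, marker genes and any other were chosen after values were seen. The pseudocount, filter, scaling, test, libraries, replicate block and a correction for GC content and length were varied.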

Additional observations from a re-analysis of the deposited data

How the results depend on the processing

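Under every alternative run, the median log2 fold change of the ribosomal protein genes stayed above 0, between 0.06 without STING KO replicate 3 and 0.19 without control replicate 2. For the large subunit it ran from 0.05 to 0.19 and for the small subunit from 0.07 to 0.21. Without both libraries with hepatocyte transcripts it was 0.11, and with the correction for GC content and length 0.08. Between 66 and 76 of the 80 genes were above 0. The share of all counts, 0.226 percentage points higher in STING KO, was 0.0982 to 0.324 points higher when 1 library was left out. The large minus small subunit difference ran from -0.04 to 0.00.

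Calls among the ribosomal protein genes were 0 in each setting except 1 without control replicate 2: leaving out 1 library gave 0 to 1. The call was Rpl13, a 60S protein named after its values were seen, with 4682, 4507 and 4683 normalized counts in STING KO and 3637, 4760 and 3720 in control libraries. Its log2 fold change was 0.33 with a limma adjusted p of 0.046 without control replicate 2, and 0.21 with 0.738 over all libraries. Of 784 values of 49 named genes under alternatives, 783 stayed on their side of the threshold, which most were far from, and 20 uncalled values changed sign, among them values of Rps6, Rpl11, Rpl21, Rpl23a, Rpl24 and Rps23.

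Over the whole table, 32 genes were called; 18 were with the replicate block, under which the ribosomal protein median was 0.14 with 0 called. Without both hepatocyte libraries 13 were called, with the GC and length correction 60, and leaving out 1 library 21 (without control replicate 1) to 35. The causes were not tested. edgeR and DESeq2 were not run on counts recovered from the normalized counts, and whether such counts would be whole reads was not tested. Counting error and the spread between libraries were not separated, and the low genes Rpl24, Rpl23a and Rpl17 had standard errors of 0.21, 0.19 and 0.18 against a median of 0.09.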
